A study of Schmidtea mediterranea with 2 samples.

Results

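The 100 genes described here were those with the highest level in the foxA RNAi library relative to the control RNAi library of planarian trunk cells, once a class of cells that differed in number between the libraries was set aside. They were chosen in 3 steps. Cells with at least 200 detected genes and fewer than 2 unique molecular identifiers (UMIs, each standing for 1 captured transcript) of SMESG000017804.1 were summed in each library. The 11413 genes with at least 100 UMIs over both libraries, of 22016 in the tables, were then ranked by a log2 ratio, which is log2 of (CPM + 1) for foxA RNAi over (CPM + 1) for control RNAi, where CPM are counts scaled to a total of 1000000 per library. The 100 highest were taken after 242 genes over 5-fold enriched in the left-out foxA cells had been set aside, 9 of which had a ratio at or above that of the lowest gene taken. The ratio therefore chose the genes, and its size is given here as a description without a test.

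Both groups were Schmidtea mediterranea of the strain CIW4, a freshwater flatworm, and differed in the RNA interference (RNAi) they received. One received the control RNAi, and in the other foxA was targeted. The labels give neither the control sequence nor the time after treatment nor the age of the animals. Trunks of 50 animals were pooled per condition, cells that took up a DNA dye and a dye for living cells were sorted, and cDNA from 16S ribosomal sequence was cut with 30 guides before 10 further cycles of amplification. With 1 library per condition, animals cannot be told apart and every difference below is between these 2 libraries, with no replicate check and no p-value. The 95% intervals cover counting error only.

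FoxA proteins are forkhead transcription factors, which bind DNA and switch on genes of particular tissues. In planarians foxA is required to make the pharynx, the muscular feeding tube in the middle of the trunk. Planarian tissues are replaced throughout life from dividing stem cells, called neoblasts, whose descendants turn on the genes of 1 cell type as they mature. The files pair no identifier with a gene name, so the roles of the 100 genes are not described, cells are grouped by number and no cell type is named. No row can be tied to foxA, so its own level is not reported.

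The libraries differed in depth. The cells used numbered 5971 with 4290721 UMIs in the control library and 6647 with 7610609 UMIs in the foxA library, after 7 and 134 cells had been left out for SMESG000017804.1. The median control cell had 563 UMIs (quartiles 405.5 and 839). The median foxA cell had 896 UMIs (quartiles 632 and 1387.5), 1.59 times as many. No doublets were removed, and 13 cell barcodes occurred in both libraries. One cluster of 310 control cells, led by SMESG000043649.1, had 0 of the 6647 foxA cells, which allows a share of up to 0.0451%. Without foxA cells it could not hold foxA UMIs of any of the 100 genes.

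Together the 100 genes took up 1998 CPM in the control library (8572 UMIs) and 8559 CPM in the foxA library (65139 UMIs). Their log2 ratios ran from 1.25 to 4.54 with a median of 2.01, against a median of 0.09 over all 11413 genes. All 100 were over 2-fold higher, as the choice required, beside 1.67% of all genes. Most were scarce in the control library, with a median of 24 UMIs (0 to 2018), and the median in the foxA library was 239.5 UMIs (88 to 13960). The last genes taken, SMESG000064830.1 and SMESG000048075.1, had log2 ratios of 1.26 and 1.25, and the first not taken, SMESG000070485.1 and SMESG000021419.1, both had 1.25. The most enriched gene that was kept, SMESG000041448.1, was 4.56-fold higher in the left-out foxA cells, and SMESG000016663.1, the least enriched of the 9 genes set aside at or above the lowest ratio taken, was 5.95-fold higher.

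**Figure D1:**
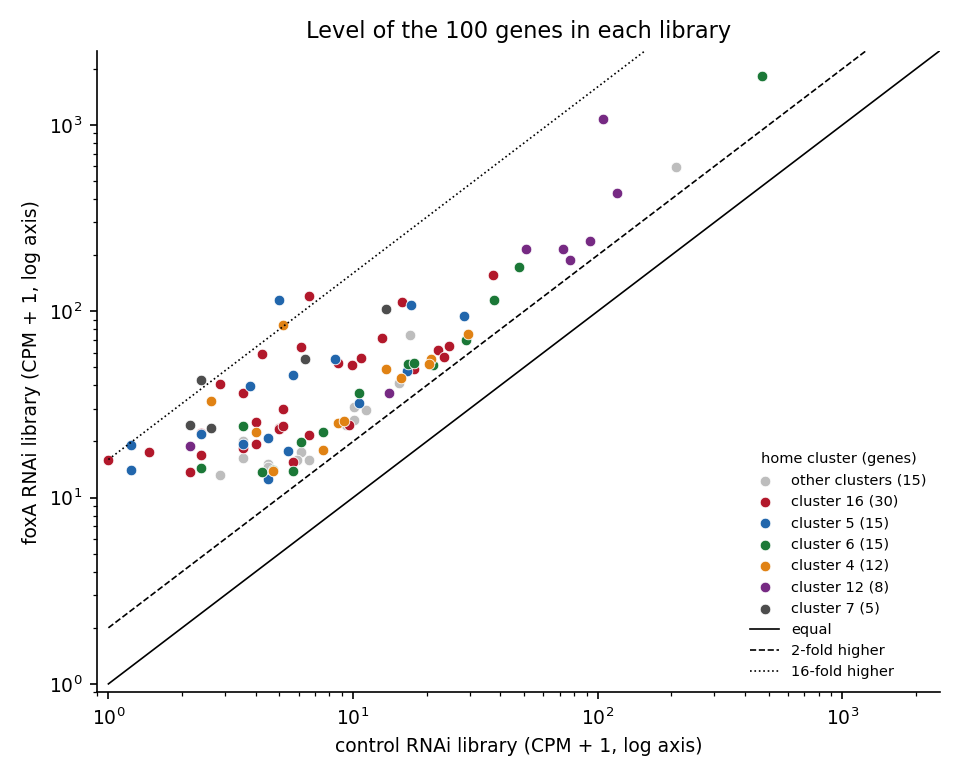
Each point is 1 of the 100 genes, with its CPM plus 1 in the control RNAi library on the horizontal axis and in the foxA RNAi library on the vertical axis, both logarithmic. Colours give the cluster with most of the gene's foxA UMIs, and all points lie above the line of 2-fold higher level because the genes were chosen that way.

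The ratios were also measured at equal depth. When 400 UMIs were drawn from every cell, which 1438 control cells (24.1%) and 0 foxA cells were too shallow for, all 100 genes were still above 0, the median log2 ratio was 1.79 and the lowest was 0.22. Of the 100, 93 were still at least 2-fold higher, beside 2.30% of all genes. The drawn UMIs are part of those that ranked the genes, so this count follows largely from the choice. Only 44 of the 100 kept 100 UMIs after thinning, and 38 would have been chosen again.

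The cells were clustered without the 100 genes, which gave 26 clusters numbered by size. The genes fell into a few of them. For 80 of the 100, at least 50% of the foxA UMIs lay in 1 cluster, which was so for 17.8% of all genes. For 51 of the 100 it was at least 90%, against 3.85% of all genes. The cluster with most of a gene's foxA UMIs is called its home below. There were 13 homes, and 6 of them held 85 of the genes: cluster 16 was home to 30, clusters 5 and 6 to 15 each, cluster 4 to 12, cluster 12 to 8 and cluster 7 to 5. In the control library, 77 genes had the same home, a count not given here over all genes.

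**Figure D2:**
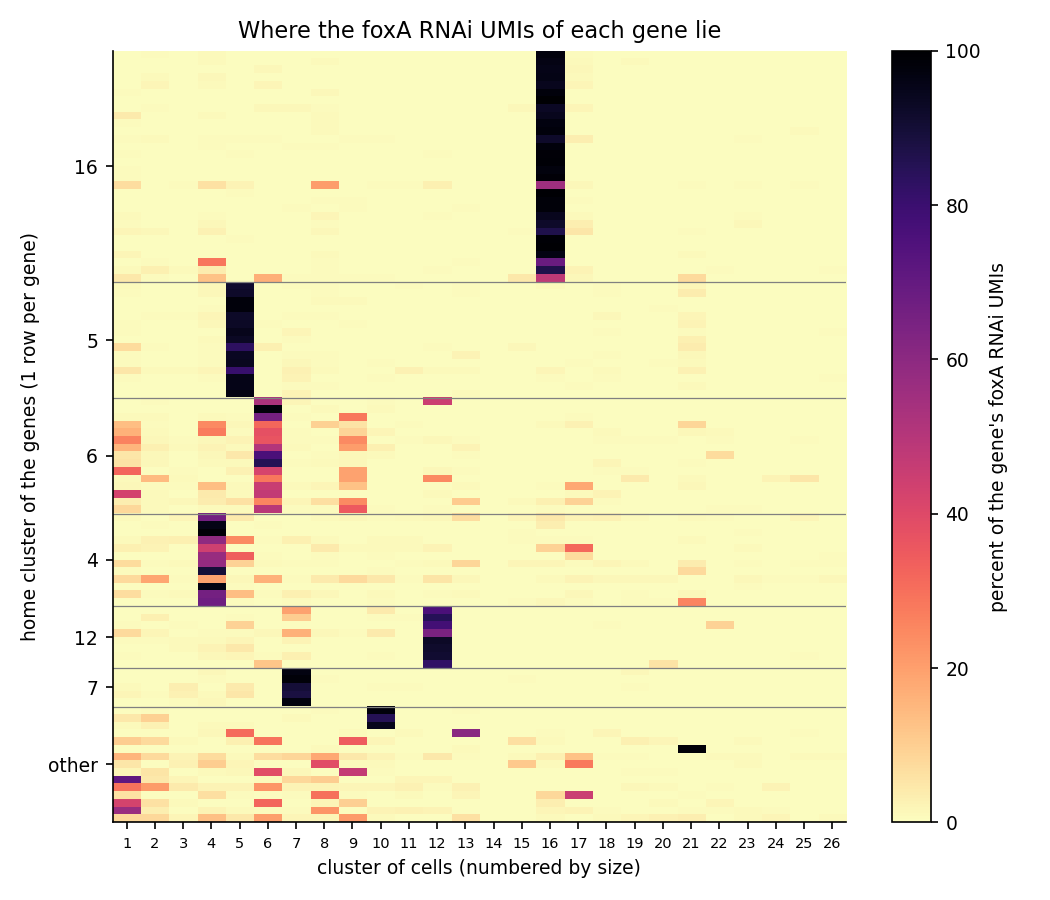
Each row is 1 gene and each column 1 cluster of cells, and the shade gives the percentage of the gene's foxA UMIs found in that cluster. Most rows of homes 16, 5, 12 and 7 are dark in 1 column, while rows of homes 6 and 4 spread over several.

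The ratio of each gene was split exactly into 3 terms: the share of cells that fell in each cluster, the UMIs per cell of each cluster relative to the rest, and the gene's CPM within the clusters. The last term was the largest for 97 of the 100 genes, beside 56.2% of all genes, and the share of cells was the largest for 3. The median terms were 1.58 for the level within clusters (0.59 to 4.55), 0.33 for the share of cells (-0.30 to 0.86) and 0.017 for UMIs per cell (-0.18 to 0.34). Over all genes the medians were 0.076, -0.001 and 0.010. The level term alone reached 1, a doubling, for 83 genes, beside 1.04% of all genes, and the share of cells reached 1 for 0 genes. Both counts were largely fixed beforehand. The level term is part of the ratio that chose the genes, so its excess over all genes follows largely from the choice. The largest log2 ratio of cell shares of any cluster was 1.03, in cluster 6, which left the term for the share of cells little room to reach 1. The level term contributed a median of 82.8% of a gene's ratio. It does not separate a higher level in each cell from more cells of a cluster that carry the gene, and the counts per cell below separate them only in part.

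**Figure D3:**
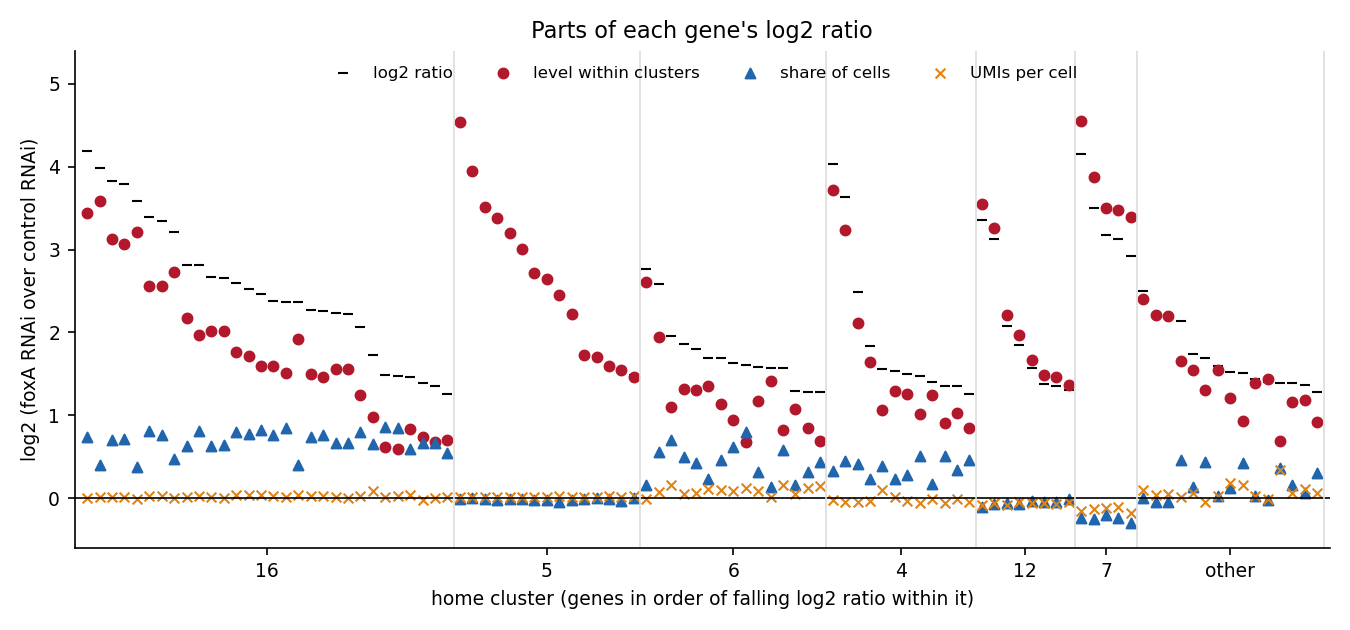
For each gene, grouped by home cluster, the dash is the log2 ratio and the symbols are its 3 terms. The level term (circles) lies near the dash for homes 5, 12 and 7, while in homes 16, 6 and 4 the share of cells (triangles) adds up to 0.86.

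The ratio was also taken apart in equally thinned cells. The median log2 ratio of the share of cells with a UMI was 1.64, and that of the UMIs per such cell was 0.35, against 0.09 and 0 over all genes. The share of cells was the larger of these parts in 90 of the 99 genes that had control UMIs after thinning. The matching count over all genes is not given here. At this depth a control cell with a UMI of a gene held a median of 1.17, where 1 is the lowest possible, so a higher level in each cell would also appear as more cells with a UMI and these parts do not separate the 2. The counting interval of the share lay above 0 for 78 of the 100 genes, beside 15.2% of all genes, a count that the choice of the genes largely fixes. How many cells carried the rise differed between homes. For 39 of the 100 genes, 50% of the foxA UMIs came from 10 or fewer foxA cells, a count not given here over all genes. These were 21 of the 30 genes of home 16, 6 of 8 of home 12, 5 of 5 of home 7, 2 of 15 of home 6 and 1 each of homes 5 and 4, beside 3 of home 10.

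**Figure D4:**
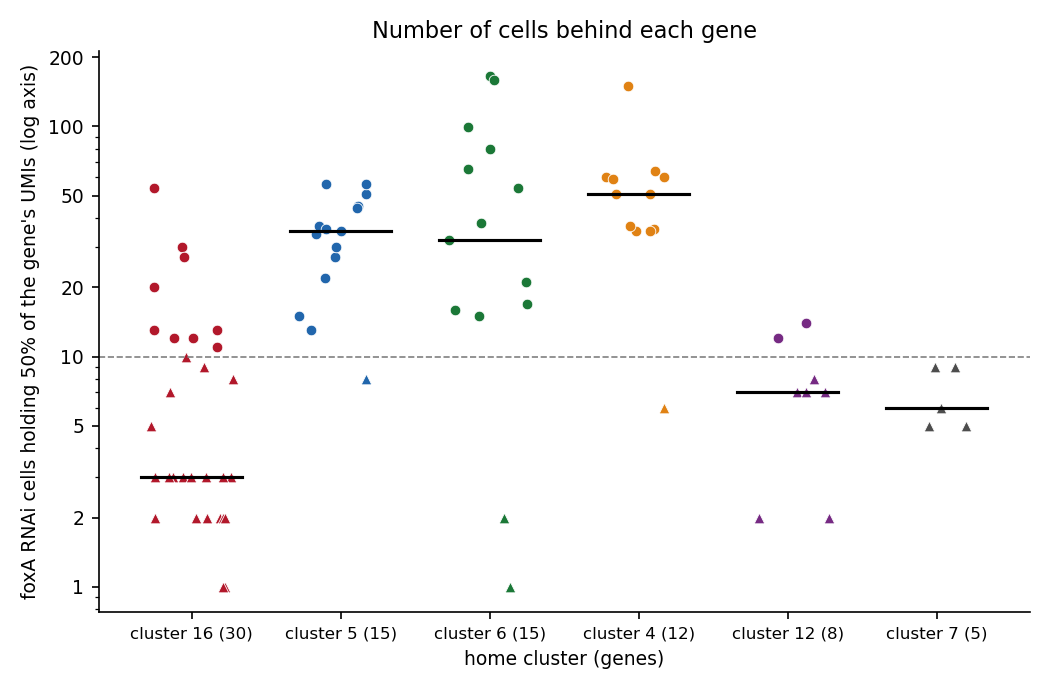
Each point is 1 gene of the 6 main homes, and the vertical axis, which is logarithmic, gives the smallest number of foxA cells that together held 50% of its foxA UMIs. Bars are medians, at 3 cells for home 16, 35 for home 5, 32 for home 6, 51 for home 4, 7 for home 12 and 6 for home 7, and triangles mark genes at or below the dashed line of 10 cells.

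Cluster 5, led by SMESG000075230.1, had a like share of the cells of both libraries. It had 402 control cells (6.73%) and 443 foxA cells (6.66%), with a log2 ratio of shares of -0.01 (-0.21 to 0.18). Within it the 15 genes together went from 1729 CPM (399 UMIs) to 11292 CPM (4602 UMIs), a log2 ratio of 2.71 (2.56 to 2.86). All 15 were at least 2-fold higher inside the cluster, beside 3.75% of the 2509 genes with at least 50 UMIs there. Homes were set on foxA UMIs, so such ratios within a home are also descriptions. After thinning, 101 of 251 control cells of the cluster (40.2%, 34.1% to 46.6%) and 350 of 443 foxA cells (79.0%, 74.9% to 82.7%) had a UMI of any of the 15. Outside the cluster this was 0.350% of control cells and 1.02% of foxA cells. The 10 genes that lead the cluster had a median log2 ratio of -0.63 within it, opposite in sign. The same median was -0.35, -0.22 and -0.11 in clusters 16, 12 and 7, and 0.25 and 0.08 in clusters 4 and 6. In cluster 2, home to 0 of the 100 genes, it was -0.85, so a fall of leading genes was not particular to cluster 5. These medians do not describe each leading gene. SMESG000040790.1, which leads cluster 12, had a log2 ratio of 0.99 over all cells.

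SMESG000043411.1 had the highest ratio of all. It had 17 UMIs (3.96 CPM) in the control library and 870 UMIs (114 CPM) in the foxA library, with a log2 ratio of 4.54. Without the added 1 CPM the ratio was 4.85 (4.16 to 5.64). All 17 control UMIs and 91.4% of the foxA UMIs lay in cluster 5. In thinned cells of that cluster, 9 of 251 control cells (3.59%, 1.65% to 6.70%) and 150 of 443 foxA cells (33.9%, 29.5% to 38.5%) had a UMI, at 1.11 and 2.92 UMIs per such cell. Before thinning the shares were 3.73% and 44.0%, and outside the cluster the thinned share of foxA cells was 0.306%. The gene was thus seen in many cells of the cluster, the 45 highest of which held 50% of its foxA UMIs.

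The other genes of home 5 were highest in the foxA cells that held SMESG000043411.1. In the 142 foxA cells of the cluster with at least 2 UMIs of it, the other 14 genes summed to 20235 CPM, and in the other 301 foxA cells they summed to 4667 CPM. Control cells of the cluster with fewer than 2 such UMIs, 400 of 402, had 1624 CPM. In cells of the cluster with 0 UMIs of SMESG000043411.1, the 14 genes summed to 1557 CPM in 387 control cells and 4223 CPM in 248 foxA cells, so they were also higher where it was not detected. The 2 control cells with at least 2 UMIs had 8781 CPM, from 9 UMIs. Median depths were 745.5 UMIs in the foxA cells with at least 2 of its UMIs and 739 in those with fewer. When cells with at least 2 UMIs of SMESG000043411.1 were left out of both libraries, the median log2 ratio of the 15 genes went from 2.64 to 0.99. That gene is 1 of the 15 and was chosen for being high in the foxA library, so part of this fall follows from how the cells were defined. Some of the other 14 genes stand near SMESG000043411.1 in the order of the feature table. Reads shared between near genes were not tested, so these genes may not be separate measurements.

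SMESG000043391.1, of the same home, had 1 UMI (0.233 CPM) in the control library and 138 UMIs (18.1 CPM) in the foxA library, with a log2 ratio of 3.96. Without the added 1 CPM the ratio was 6.28 with a wide interval (3.78 to 11.6). Its foxA UMIs lay in 68 cells, 92.0% of the UMIs in cluster 5.

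Cluster 4, led by SMESG000002628.1, combined a larger share of cells with a higher level. Of control cells 5.54% (331) and of foxA cells 8.20% (545) fell in it, and the log2 ratio of these shares was 0.56 (0.36 to 0.77). Its 12 genes went from 1157 CPM (349 UMIs) to 3391 CPM (2551 UMIs) within it, a log2 ratio of 1.55 (1.39 to 1.72), and 8 of the 12 were at least 2-fold higher there, beside 4.77% of the 3942 genes compared. The level term was the largest for all 12, with a median of 1.25, and the share of cells had a median of 0.36. Thinning left 287 of its 331 control cells and all 545 foxA cells. Of these, 38.3% of control cells (32.7% to 44.2%) and 57.6% of foxA cells (53.3% to 61.8%) had a UMI of any of the 12, against 2.17% and 6.18% of cells outside. The rise was spread over many cells, and 0 cells of either library took 5% or more of their UMIs from these genes, which allows a share of up to 0.0502% of control cells and 0.0451% of foxA cells.

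SMESG000041448.1 was the highest of home 4. It had 18 UMIs (4.195 CPM) in the control library and 638 UMIs (83.8 CPM) in the foxA library, with a log2 ratio of 4.03, and of 4.32 (3.65 to 5.08) without the added 1 CPM. In thinned cells of cluster 4, 1 of 287 control cells (0.348%) and 63 of 545 foxA cells (11.6%) had a UMI. Outside the cluster it was also higher, with 11 control UMIs and 216 foxA UMIs, a log2 ratio of 3.51 (2.65 to 4.54), so 66.1% of its foxA UMIs were in the home. Another 96 UMIs lay in the 134 left-out foxA cells.

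Cluster 6, led by SMESG000075928.1, had the largest change in the share of cells among the 6 homes. The share went from 3.77% of control cells (225) to 7.69% of foxA cells (511), with a log2 ratio of 1.03 (0.80 to 1.26). Its 15 genes together went from 11958 CPM to 23977 CPM within the cluster, a log2 ratio of 1.00 (0.93 to 1.08). Over all cells, SMESG000013389.1 alone had 2018 of the 2880 control UMIs of the 15 genes. In the foxA library it had 13960 of 18984, so the sums describe mostly that gene. Of the 15 genes, 13 could be compared within the cluster and 8 were at least 2-fold higher, beside 6.83% of the 2458 genes compared. Thinning left 138 of its 225 control cells and all 511 foxA cells. Of these, 76.8% of control cells (68.9% to 83.6%) and 80.0% of foxA cells (76.3% to 83.4%) had a UMI of any of the 15, so these intervals overlapped. Taken gene by gene, the share of its thinned cells with a UMI had a median of 2.90% for control and 7.44% for foxA cells. Outside the cluster, 7.71% of control and 13.9% of foxA cells had a UMI of any of the 15. Among the 6 main homes its genes were the least confined, with a median of 46.9% of foxA UMIs at home.

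SMESG000013389.1 was the most abundant of the 100, with 2018 UMIs (470 CPM) in the control library and 13960 UMIs (1834 CPM) in the foxA library. Its log2 ratio was 1.96 (1.90 to 2.03 without the added 1 CPM). In this gene the terms were closer to each other than in most: 1.10 for the level, 0.70 for the share of cells and 0.16 for UMIs per cell. In thinned cells of cluster 6, 63.8% of control cells (55.2% to 71.8%) and 57.9% of foxA cells (53.5% to 62.2%) had a UMI, at 7.33 and 10.1 UMIs per such cell. Inside its home the share of cells with the gene was therefore not higher at this depth. Outside the home the share of cells with a UMI was 3.85% and 5.83%, and the log2 ratio of the summed level there was 1.75 (1.65 to 1.86).

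Cluster 16, led by SMESG000066414.1, was home to 30 of the genes although it was small, at 1.39% of control cells (83) and 2.60% of foxA cells (173), with a log2 ratio of shares of 0.90 (0.52 to 1.30). Its 30 genes went from 12734 CPM (775 UMIs) to 46373 CPM (9394 UMIs) within the cluster, a log2 ratio of 1.86 (1.76 to 1.97), and 26 of the 30 were at least 2-fold higher there, beside 8.98% of the 857 genes compared. The median level term was 1.65 and the median term for the share of cells was 0.71. Thinning left 61 of its 83 control cells and all 173 foxA cells. Of these, 80.3% of control cells (68.2% to 89.4%) and 84.4% of foxA cells (78.1% to 89.5%) had a UMI of any of the 30, and the median cell had UMIs of 1 and of 4 of the genes.

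Very few cells carried much of this. The 6 foxA cells with most UMIs of the 30 genes each held 17 to 20 of them, which made up between 20.4% and 55.5% of the UMIs of those cells. Only 1 control cell was of this kind, with 19 of the genes and 452 of its 812 UMIs (55.7%). Cells that took at least 10% of their UMIs from the 30 genes numbered 1 of 5971 in the control library (0.0167%, 0.00042% to 0.0933%) and 10 of 6647 in the foxA library (0.150%, 0.0722% to 0.277%). The 1 control cell held 43.8% of all control UMIs of the 30 genes, and the 10 foxA cells held 54.3% of all foxA UMIs. Without the cells of this kind for any of the 6 homes, 6 control and 48 foxA cells, the median log2 ratio of the 30 genes went from 2.42 to 1.51. These cells were defined by UMIs of the chosen genes, so part of this fall follows from how they were defined. The median of the 30 genes was also lower under alternatives that did not pick cells by these genes. It was 1.53 without the 5% of cells with most UMIs, 1.68 after thinning and 1.83 when each cell counted equally. Leaving out the 10 cells per library with most UMIs of each gene gave 1.59. Keeping only cells with at least 500 genes moved it the other way, to 3.75. The cause was not tested.

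For 9 genes of home 16, more than 10 cells were needed to reach 50% of the foxA UMIs. SMESG000028261.1, one of the 9, had 24 UMIs (5.59 CPM) in the control library and 907 UMIs (119 CPM) in the foxA library, with a log2 ratio of 4.19, and of 4.41 (3.83 to 5.06) without the added 1 CPM. In thinned cells of cluster 16, 8 of 61 control cells (13.1%, 5.84% to 24.2%) and 73 of 173 foxA cells (42.2%, 34.7% to 49.9%) had a UMI, at 1.12 and 4.58 UMIs per such cell. Both its share of cells and its UMIs per cell were thus higher. SMESG000035061.1, with the most foxA UMIs of the home, had 156 UMIs (36.4 CPM) and 1179 UMIs (155 CPM), a log2 ratio of 2.06, and was found in 52.5% of the thinned control cells of the cluster (39.3% to 65.4%) and in 60.1% of the foxA cells (52.4% to 67.5%), at 2.19 and 4.43 UMIs per such cell.

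SMESG000035330.1 had 0 UMIs in the control library, which allows up to 3, and 113 UMIs (14.8 CPM) in the foxA library, at least 21.2-fold higher. Its foxA UMIs came from 39 cells, 8 of which held 50%. At the other end stood SMESG000034921.1, with the lowest level term, 0.59, below its term of 0.85 for the share of cells. It had 72 UMIs (16.8 CPM) in 3 control cells, 70 of them in 1 cell, and 367 UMIs (48.2 CPM) in 10 foxA cells, 156 of them in 1 cell. The log2 ratio of 1.47 therefore compared 3 cells with 10, and without the cells that took at least 10% of their UMIs from the genes of 1 home it was -0.069. Its own UMIs helped to define those cells. SMESG000064830.1, next to last of the 100, was of the spread kind, with 78 control and 243 foxA cells and 48.0% of its foxA UMIs in cluster 16.

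Cluster 12, led by SMESG000040790.1, held 2.93% of control cells (175) and 2.86% of foxA cells (190), with a log2 ratio of shares of -0.04 (-0.34 to 0.27). Its 8 genes went from 9653 CPM (1373 UMIs) to 61159 CPM (14271 UMIs) within it, a log2 ratio of 2.66 (2.58 to 2.74), and all 8 were at least 2-fold higher there, beside 2.77% of the 1193 genes compared. Thinning left 139 of its 175 control cells and all 190 foxA cells. Of these, 33.8% of control cells (26.01% to 42.3%) and 51.1% of foxA cells (43.7% to 58.4%) had a UMI of any of the 8. Cells that took at least 10% of their UMIs from the 8 genes numbered 3 of 5971 in the control library (0.0502%, 0.0104% to 0.147%) and 33 of 6647 in the foxA library (0.496%, 0.342% to 0.697%). These are counts in 1 library each, of cells defined by genes chosen for being high in the foxA library. The 3 control cells held 44.1% of all 2257 control UMIs of the 8 genes. The highest of them, with 477, lay in cluster 2 and so outside the sums within cluster 12. The 33 foxA cells held 79.7% of all 18373 foxA UMIs of the 8 genes. Of the 33, 29 were in cluster 12. Among the 3 highest, 2 lay in cluster 7, with 4425 and 2284 UMIs in all, against a median of 1504 for foxA cells of that cluster; whether such barcodes held more than 1 cell was not tested. Without the cells of this kind for any of the 6 homes, the median log2 ratio of the 8 genes went from 1.71 to 0.83. Here too part of the fall follows from how the cells were defined. Other alternatives did not lower the median of the 8 genes. It was 1.83 without the 5% of cells with most UMIs and 1.96 after thinning. Without the 10 cells per library with most UMIs of each gene it was 1.85.

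SMESG000040823.1 had the most foxA UMIs of the 8, with 447 (104 CPM) in the control library and 8208 (1079 CPM) in the foxA library, a log2 ratio of 3.36 (3.23 to 3.51 without the added 1 CPM). It was found in 12 control cells, 1 of which held 252 UMIs, and in 78 foxA cells, 1 of which held 1348. In thinned cells of cluster 12, 2 of 139 control cells (1.44%, 0.175% to 5.10%) and 26 of 190 foxA cells (13.7%, 9.14% to 19.4%) had a UMI, at 50.5 and 73.7 UMIs per such cell. The control values here rest on those 2 cells, and 7 of the 78 foxA cells held 50% of the gene's foxA UMIs.

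Cluster 7, led by SMESG000029602.1, made up less of the foxA library, with 6.21% of control cells (371) and 5.01% of foxA cells (333), at a log2 ratio of shares of -0.31 (-0.53 to -0.09). Its 5 genes moved the other way, from 119 CPM (58 UMIs) to 2940 CPM (1756 UMIs) within the cluster, a log2 ratio of 4.62 (4.25 to 5.03). All 5 were at least 2-fold higher there, beside 2.25% of the 2757 genes compared, and their level terms of 3.40 to 4.55 were larger than their ratios of 2.92 to 4.15. After thinning, 17 of 352 control cells (4.83%, 2.84% to 7.62%) and 85 of 333 foxA cells (25.5%, 20.9% to 30.6%) had a UMI of any of the 5, against 0.431% and 0.333% of cells outside. In each of the 5 foxA cells with most of these UMIs, all 5 genes were found together.

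SMESG000012688.1 had the highest level term of the 100, 4.55. It had 6 UMIs (1.40 CPM) in 5 control cells and 317 UMIs (41.7 CPM) in 67 foxA cells, with a log2 ratio of 4.15, and of 4.90 (3.76 to 6.35) without the added 1 CPM. In thinned cells of cluster 7, 3 of 352 control cells (0.852%) and 32 of 333 foxA cells (9.61%) had a UMI. SMESG000024478.1, with the most foxA UMIs of this home, had 54 UMIs (12.6 CPM) and 775 UMIs (102 CPM), a log2 ratio of 2.92. The most it reached in a single cell was 2 UMIs for control RNAi and 112 UMIs for foxA RNAi. Outside cluster 7 it had 14 and 23 UMIs, a log2 ratio of -0.17 (-1.19 to 0.91).

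The other 15 genes had 7 further clusters as homes. Cluster 10, with 203 control and 229 foxA cells, was home to 3 of them, SMESG000014723.1, SMESG000018510.1 and SMESG000028327.1, which are named because they are the whole of that home and not by the rule for named genes. They had 11, 11 and 8 UMIs in the control library and 146, 117 and 93 UMIs in the foxA library, with log2 ratios of 2.50, 2.20 and 2.21. In each of the 3, only 4 foxA cells held 50% of the foxA UMIs, and their terms for the share of cells lay between -0.05 and 0.001. SMESG000057626.1, the single gene of home 13, had 69 and 563 UMIs and a log2 ratio of 2.13, and was found in 46 control and 171 foxA cells. SMESG000054547.1, the most abundant of the 15 and named for that after its values were seen, had 889 UMIs in 336 control cells and 4522 UMIs in 868 foxA cells, with 46.7% of the foxA UMIs in cluster 9.

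There were 20 genes, some of the homes above, with no cluster holding 50% of their foxA UMIs. They were higher in the foxA library in 7 to 18 of the 19 clusters that had at least 50 cells of each library, with a median of 11, and lower in 0 to 6, with a median of 2, while the rest had no UMIs of the gene. For the 9365 genes of all those tested with less than 50% of foxA UMIs in 1 cluster, the medians were 10 clusters higher and 7 lower. The log2 ratios of the 20 genes had a median of 1.52 and their level terms a median of 1.17 (0.69 to 1.55). The widest was SMESG000004840.1, chosen for that after its values were seen, which was higher in 18 of the 19 clusters and lower in 0, with a log2 ratio of 1.60 and a largest cluster that held 18.2% of its foxA UMIs.

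Many of the genes neighbour each other in the order of the feature table, which the choice did not use. A member of the 100 stood in an adjacent row in 23 cases, and all 23 shared their home with that neighbour, a count not given here over all genes. Of the 105 genes with at least 100 UMIs in rows next to a member, 21.9% were members, against 0.876% of all genes tested. Within 20 rows the excess was smaller: of 1550 genes with at least 100 UMIs that near a member, 2.58% were members, against 0.876%. The other 1510 had a median log2 ratio of 0.09, the same as over all genes. Allowing gaps of up to 20 rows, 40 of the 100 fell into 13 runs, and 10 of the runs, with 32 genes, had a single home. How often other genes this near share a home is not given here. The run with most genes, from SMESG000043423.1 to SMESG000043388.1, spanned 18 rows and held 6 genes of home 5, SMESG000043411.1 and SMESG000043391.1 among them. The other 8 genes with at least 100 UMIs in those rows had a median log2 ratio of -0.25, so not all rows of the run moved. In the run of 14 rows from SMESG000035335.1 to SMESG000035312.1, with 5 genes of home 16, the 8 other rows with UMIs went from 12 to 181 UMIs and had cluster 16 as their home too. Another run, from SMESG000028260.1 to SMESG000028264.1, had all 4 of its rows among the genes of home 16. The files do not say that the order of rows is the order along a chromosome, and reads shared between near-identical or overlapping genes were not tested, so neighbouring genes may not be separate measurements.

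**Figure D5:**
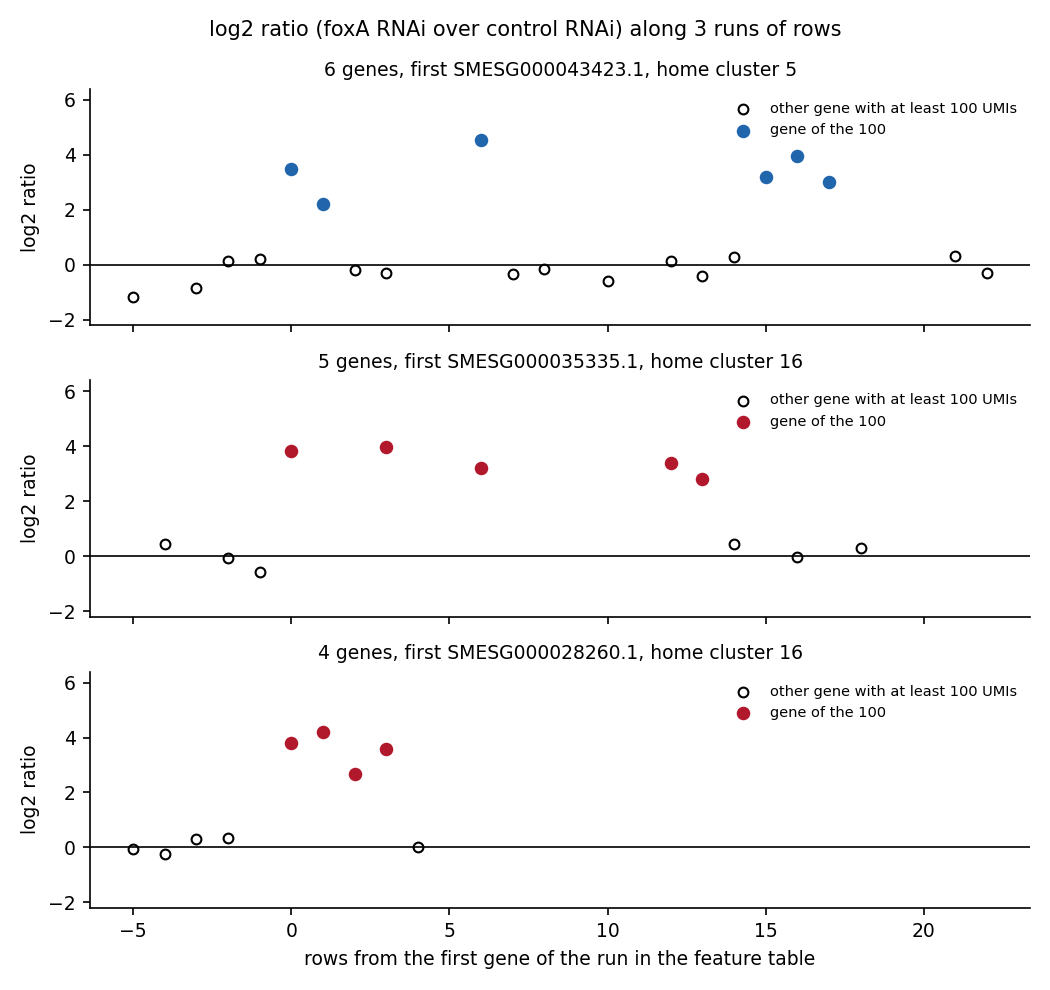
The log2 ratio of genes with at least 100 UMIs is plotted against their distance in rows from the first gene of each of 3 runs. Filled points are genes of the 100 and open points are other genes, and around the filled points the other genes of the first run have a median of -0.25.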

How the data were processed

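Single-cell cDNA from 1 control RNAi and 1 foxA RNAi library was analysed. The deposited values are raw UMI counts per gene and barcode, not normalized. Their header line names Cell Ranger 6.1.2, while the submitters' processing notes name Cell Ranger 7. The genome build, annotation and cell-calling settings are not given in the sources used here.

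The counts were summed per library and scaled to CPM (a total of 1000000). Cells of both libraries were clustered together without the 100 genes in scanpy 1.11.5 (2000 variable genes, 30 components, 15 neighbours, Leiden resolution 0.5 with igraph 0.11.9). The ratio was split into 3 terms by switching each factor in all 6 orders and averaging, which was tested on simulated data. Home clusters are described where they held at least 5 of the genes. Within clusters, genes needed 50 UMIs and clusters 50 cells of each library. Thinning drew 400 UMIs per cell. Intervals at 95% are exact (Poisson for sums, Clopper-Pearson for shares, conditional binomial for ratios), cover counting error only, and a count of 0 is taken to allow 3. No doublet caller was run. TMM factors came from edgeR 4.0.16 in R 4.3.3.

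The genes, lists and comparisons were chosen with earlier results of these data known. Genes named are the 6 highest ratios, the gene with most foxA UMIs of each main home and of all, the highest and lowest level terms, and 2 genes on each side of the limit of the 100. Leading genes of clusters, the ends of runs and the gene nearest the enrichment limit are named besides. No sequence was used here.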

Additional observations from a re-analysis of the deposited data

Results flagged for a closer look

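SMESG000062670.1, of home 16, differed in direction between cells: its log2 ratio was 2.01 in cluster 16 (0.98 to 3.26; 8 control and 107 foxA UMIs) and -2.39 in all cells outside cluster 16 (-4.48 to -0.67; 12 control and 4 foxA UMIs). The difference between these values was not tested, and each condition is 1 library.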

How the results depend on the processing

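No paired analysis was possible because there was a single library of either kind, and no replicate could be left out. The median log2 ratio of the 100 genes, 2.01, was 1.55 with a pseudocount of 5 CPM, 2.53 with at least 500 genes per cell, 1.62 without cells with at least 2 UMIs of SMESG000043411.1, 1.60 with clusters weighted to equal shares of UMIs and 1.67 without cells taking at least 10% of their UMIs from the genes of 1 home, an alternative added after the data were seen. The median level term, 1.58, was 1.44 and 1.31 in the third and the last of these. The cells left out in those 2 alternatives were defined by UMIs of genes of the 100, so part of the lower medians follows from that. Under the other alternatives both medians stayed within the order-statistic interval of the main median. These were a pseudocount of 0.1 CPM, all deposited cells, TMM factors, the mean of per-cell CPM, thinning, removal of the 10 highest cells per gene or of the 5% of cells with most UMIs and, for the level term, other clusterings. Resolution 2.0 and removal of clusters with no cell in 1 library were added after the data were seen. The number of genes at least 2-fold higher lay between 83 and 100, that of genes with the level term largest between 84 and 100, and that of genes with 50% of foxA UMIs in 1 cluster between 66 and 88. The choice itself was less stable: 59 of the 100 were chosen again with at least 200 UMIs per gene, 66 with at least 500 genes per cell and 38 after thinning, where 44 still had 100 UMIs. SMESG000034921.1 reversed, to -0.069, without the cells taking at least 10% of their UMIs from the genes of 1 home. Of the other values, for single genes and homes, 64 moved beyond their interval and 208 did not. The cause was not tested.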
